A study of Rattus norvegicus with 4 samples.

Results

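ENSRNOT00000074532 and ENSRNOT00000075924 are 2 Ensembl long non-coding RNA (lncRNA) transcripts with overlapping spans on rat chromosome 20. They were picked by identifier from the 17934 lncRNA transcripts listed in at least 1 library, because of how their levels and their ratio differed between libraries. Their values therefore describe that choice, and no test is given on them. Both were listed in all 4 libraries, as 15231 transcripts were, and both passed a filter on low values (a mean of at least 1 FPKM, that is, reads scaled by transcript length and library total), as 7321 transcripts did. By mature length, ENSRNOT00000075924 (also NONRATT032808.1) is the shorter isoform and ENSRNOT00000074532 (also NONRATT032807.1) the longer.

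The cells were primary neonatal cardiomyocytes from Sprague-Dawley pups, aged 1 to 2 days, with no transgene or other allele named in the labels. High glucose, which serves here to model oxidative stress with apoptosis, was 33 mmol/l, and normal glucose was 5 mmol/l with 28 mmol/l of mannitol to equalise the osmolality. Both media carried carnitine at 2 mM, creatine at 5 mM and taurine at 5 mM. The 4 groups were high glucose for 48 h (H48), normal glucose for 48 h (N48), high glucose for 24 h (H24) and normal glucose for 24 h (N24), each with 1 library of strand-specific total RNA, so that no difference has a replicate check.

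LncRNAs are transcripts without a long open reading frame. Transcripts of a locus that differ in their first exon, splicing or 3′ end are its isoforms, and they can differ in level when promoters, splice sites or polyadenylation sites are used to different extents. FPKM divides reads by transcript length and so permits a level of the shorter isoform to be set against that of the longer, whereas CPM (reads scaled to a common library total, without length) serves to compare 1 transcript between libraries.

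The longer isoform spans chr20:47225619-47263389 in the rn6 build, 37771 bp for a mature length of 1173 nt. The shorter isoform spans chr20:47253664-47263390, 9727 bp for 932 nt. Both are thus spliced, since each span is at least 10.4 times the mature length. Their right ends lie 1 bp apart and their left ends 28045 bp apart, so that the shorter span covers 25.7% of the longer. The tables give neither strand nor exons, so which end is 5′ and how much sequence the transcripts share were not analysed here, and that they are isoforms of a single gene rests on their overlapping spans. Neither identifier was found in the RefSeq gene table of the GRCr8 assembly, and no gene name or function is given to the locus. Reads from shared exons cannot be assigned to an isoform by counts alone, and no source used here says how the authors split them. No other listed transcript overlapped either isoform.

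**Figure D1:**
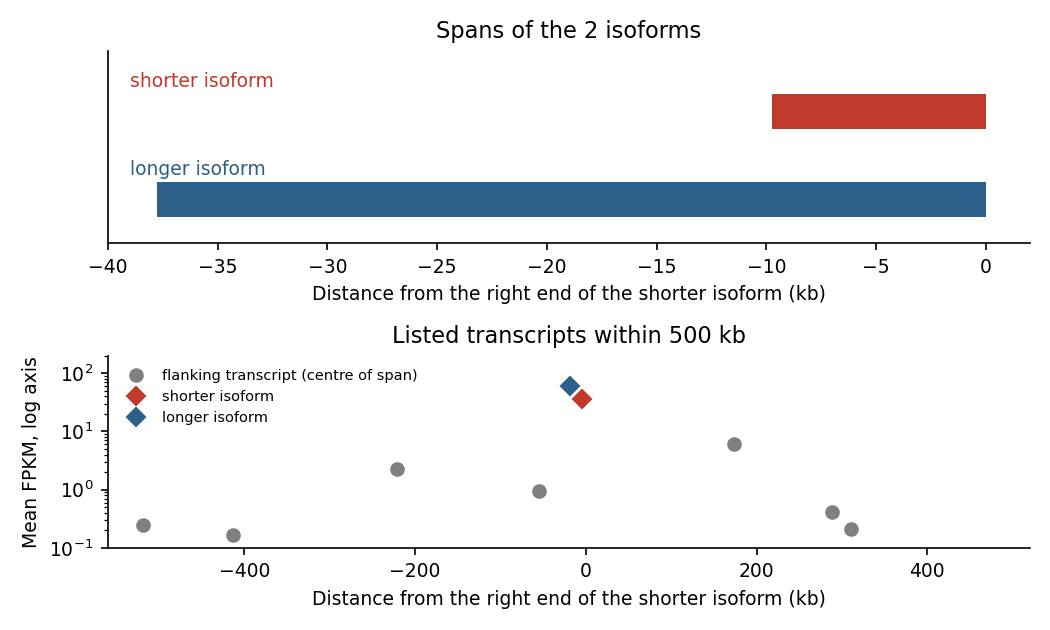
Top, spans of the 2 isoforms, in kb from the right end of the shorter isoform. Bottom, mean FPKM over the 4 libraries on a log axis for the 2 isoforms and the 7 listed transcripts within 500 kb, each placed at the centre of its span. The isoforms share their right end to 1 bp and stand at 36.4 and 59.3 FPKM, above all 7 flanking transcripts.

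The shorter isoform was most abundant in H48. It had 883 reads in H48, 454 in N48, 355 in H24 and 240 in N24. Deposited FPKM values of the shorter isoform were 66.6, 32.8, 24.3 and 21.7 in the same order of libraries. The counting intervals (95%, exact Poisson) of its CPM ran from 58.0 to 66.3 in H48, from 27.8 to 33.5 in N48, from 20.4 to 25.2 in H24 and from 17.7 to 22.9 in N24. Only the intervals of the 24 h libraries overlapped, and the highest CPM was 3.07 times the lowest.

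The longer isoform differed little between libraries. It had 890 reads in H48, 1005 in N48, 1116 in H24 and 909 in N24. Its FPKM values were 53.3, 57.7, 60.8 and 65.2, and its CPM values 62.6, 67.7, 71.3 and 76.5, in the same order of libraries. Its highest CPM was 1.22 times the lowest, and 1231 of the 7321 transcripts past the filter (16.8%) had a highest CPM within 1.3 times the lowest. That limit was set after the values were seen. Of the 7321, 1756 had a mean of at least 100 reads, and transcripts with fewer reads vary more by counting error. Counting intervals overlapped between neighbours in this order of levels. Those of its ends did not, at 58.5 to 66.8 CPM in H48 and 71.6 to 81.7 CPM in N24.

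**Figure D2:**
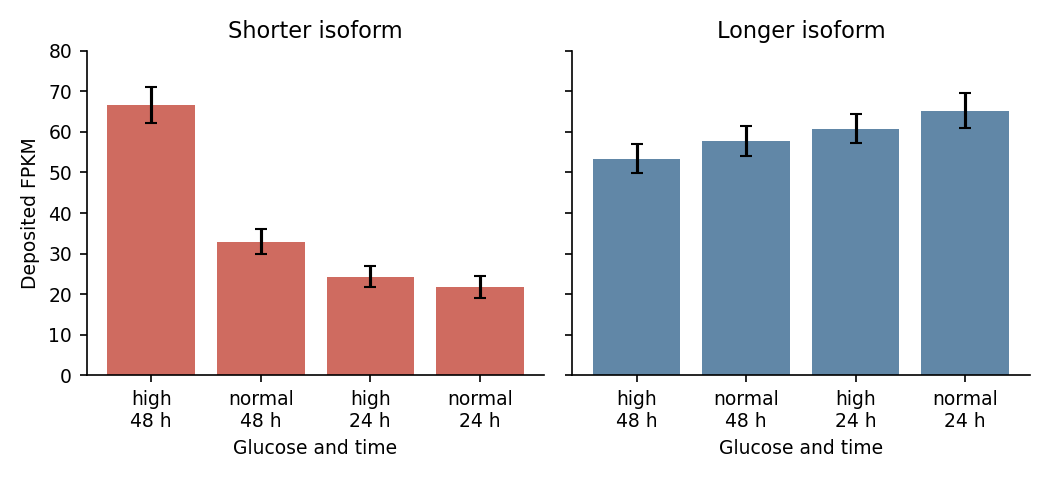
Deposited FPKM of the shorter (left) and longer (right) isoform, 1 bar per library, with 95% exact Poisson intervals that cover counting error only. The shorter isoform stands at 66.6 FPKM in H48 and at or below 32.8 in the other libraries, while the longer stays between 53.3 and 65.2.

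High glucose was compared with normal glucose at each time. At 48 h the shorter isoform stood at 62.1 CPM in high glucose and 30.6 CPM in normal glucose, 2.03-fold higher (95% exact counting interval 1.81 to 2.28). At 24 h it stood at 22.7 CPM in high glucose and 20.2 CPM in normal glucose, a fold of 1.12 whose interval of 0.95 to 1.33 includes 1. The 48 h fold was 1.81 times the 24 h fold (95% Wald interval for counting error 1.48 to 2.21). For the longer isoform the fold of high over normal glucose was 0.925 at 48 h (0.844 to 1.01) and 0.932 at 24 h (0.853 to 1.02), and the 48 h fold was 0.993 times the 24 h fold (0.875 to 1.13). With library totals the interval at 48 h thus included 1 for the longer isoform and excluded 1 for the shorter. Since the isoforms were chosen for such differences, these intervals describe the choice and test nothing. The spread between cultures is unknown for either isoform.

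The 48 h libraries were compared with the 24 h libraries in each medium. In high glucose the shorter isoform was 2.74-fold higher at 48 h (2.42 to 3.10), and in normal glucose 1.51-fold higher (1.29 to 1.78). With library totals the longer isoform was lower at 48 h in both media. It stood at 0.878 times its 24 h level in high glucose (0.803 to 0.959) and 0.884 times in normal glucose (0.807 to 0.968). These comparisons use the same 4 libraries as those of glucose, so the 2.03-fold and 2.74-fold values of the shorter isoform share the H48 library. The 1.51-fold value in normal glucose does not use that library, but it is part of the pattern for which the isoform was chosen. In bulk RNA, fewer cells of a type and less RNA per cell cannot be told apart.

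The direction of the longer isoform depended on library scaling for glucose at 48 h and stayed below 1 in the other 3 comparisons with each of the 4 scalings. With TMM factors its fold of high over normal glucose at 48 h was 1.06, on the other side of 1. Its fold of 48 h over 24 h in high glucose was 0.966 with TMM factors, against 0.878 (0.803 to 0.959) with library totals. No intervals were computed with TMM factors, so whether 0.966 lies beyond counting error was not assessed. In normal glucose the longer isoform's fold of 48 h over 24 h was 0.881 with TMM factors and a pseudocount of 1 CPM, against 0.885 with library totals. For the shorter isoform TMM factors gave 2.33 for glucose at 48 h. The factors moved the median log2 ratio of all 7321 transcripts at 48 h to -0.01, against -0.14 with library totals. Relative to the median with library totals, the shorter isoform lay 1.14 above and the longer 0.03 above on the log2 scale at 48 h.

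The ratio of the isoforms within a library does not depend on scaling. By reads, the shorter isoform was 0.992 times the longer in H48 (95% exact interval 0.903 to 1.09), 0.452 times in N48 (0.403 to 0.505), 0.318 times in H24 (0.281 to 0.359) and 0.264 times in N24 (0.228 to 0.305). Per length, by FPKM, the ratio was 1.25 in H48 (1.14 to 1.37), 0.569 in N48 (0.508 to 0.636), 0.40 in H24 (0.354 to 0.452) and 0.332 in N24 (0.287 to 0.384). The H48 library was the only library of the 4 in which the shorter isoform had the higher FPKM, by 13.3. In the other libraries the FPKM of the shorter minus that of the longer isoform was -24.9 in N48, -36.4 in H24 and -43.6 in N24.

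As a share of the pair's reads, the shorter isoform took 49.8% in H48 (47.4 to 52.2), 31.1% in N48 (28.7 to 33.6), 24.1% in H24 (22.0 to 26.4) and 20.9% in N24 (18.6 to 23.4). The ratio in high glucose was 2.20 times that in normal glucose at 48 h (95% exact conditional interval 1.90 to 2.55) and 1.20 times at 24 h (0.997 to 1.46). At 48 h it was 3.12 times the 24 h ratio in high glucose (2.67 to 3.64) and 1.71 times in normal glucose (1.42 to 2.06). The interval thus excluded 1 for time in both media and included 1 for glucose at 24 h. The pair was chosen for how this ratio differed, so the intervals describe counting error and test nothing.

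Both isoforms together stood at 124.6 CPM in H48, 98.2 CPM in N48, 94.0 CPM in H24 and 96.7 CPM in N24. These sums, the shares above and their intervals take each read as counted for a single isoform, which no source used here states. The pair's sum was 1.27-fold higher in H48 than in N48 (1.18 to 1.36), from a difference of 31.5 CPM in the shorter isoform and of -5.09 CPM in the longer. Sums were taken with library totals only. For glucose at 48 h both isoforms had higher folds with TMM factors, 2.33 and 1.06 against 2.03 and 0.925. The size of the sum's fold and the sign of the longer isoform's part thus depend on scaling. At 24 h the sum in high glucose was 0.971 times that in normal glucose (0.899 to 1.05). Over time it was 1.33-fold higher at 48 h in high glucose (1.24 to 1.42), and in normal glucose its fold was 1.02 (0.939 to 1.10). In normal glucose the isoforms differed in opposite directions between times, with a difference of 10.4 CPM in the shorter and of -8.88 CPM in the longer at 48 h over 24 h.

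**Figure D3:**
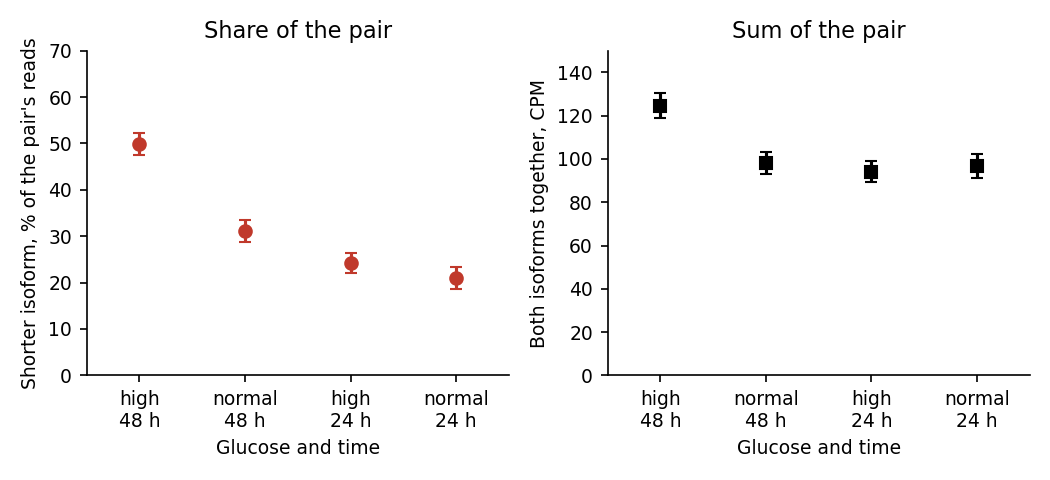
Left, percent of the pair's reads that belong to the shorter isoform, with 95% exact binomial intervals. Right, CPM of both isoforms together, with 95% exact Poisson intervals, 1 point per library in both panels. The share is 49.8% in H48 and between 20.9% and 31.1% elsewhere, and the sum is 124.6 CPM in that library and between 94.0 and 98.2 elsewhere.

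The isoforms were read against all 7321 transcripts past the filter, with a call at 2-fold on the log2 (CPM + 1) scale. In H48 against N48, 2.85% of transcripts were called higher and 4.32% lower, 7.17% in all, and in H24 against N24 2.34% higher and 2.55% lower, 4.89% in all. In H48 against H24, 2.57% were called higher and 4.34% lower, 6.91% in all, and in N48 against N24 2.02% higher and 2.65% lower, 4.67% in all. The shorter isoform was past the threshold in 1 of the 4 comparisons, 48 h over 24 h in high glucose. For glucose at 48 h it lay immediately under it, at 2.00-fold with the pseudocount and 0.9988 on the log2 scale, and TMM factors put it past the threshold at 2.28-fold. The longer isoform was past it in none of the 4 comparisons with any of the 4 scalings run. Since these contrasts chose the isoforms, the counts are given as background only.

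In rank, 209 transcripts (2.85%) had a higher log2 ratio for glucose at 48 h than the shorter isoform, and 1770 (24.2%) had a higher ratio at 24 h. For time, 120 (1.64%) exceeded it in high glucose and 377 (5.15%) in normal glucose. The longer isoform was exceeded by 47.4% of transcripts for glucose at 48 h and 59.5% at 24 h, near the middle of the distribution. For time it was exceeded by 60.0% in high glucose and 74.8% in normal glucose. Among the 1756 transcripts with a mean of at least 100 reads, the shorter isoform was exceeded by 3.30% for glucose at 48 h and 18.8% at 24 h. For time 2.45% of them exceeded it in high glucose and 4.27% in normal glucose. The longer isoform was exceeded by 43.5% and 61.3% of them for glucose, and by 60.9% and 81.6% for time, in the same order. Both comparisons that involve the H48 library had more transcripts beyond 2-fold (525 and 506) than the 2 that do not (358 and 342), and the part of that library in the isoforms' values was not tested.

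**Figure D4:**
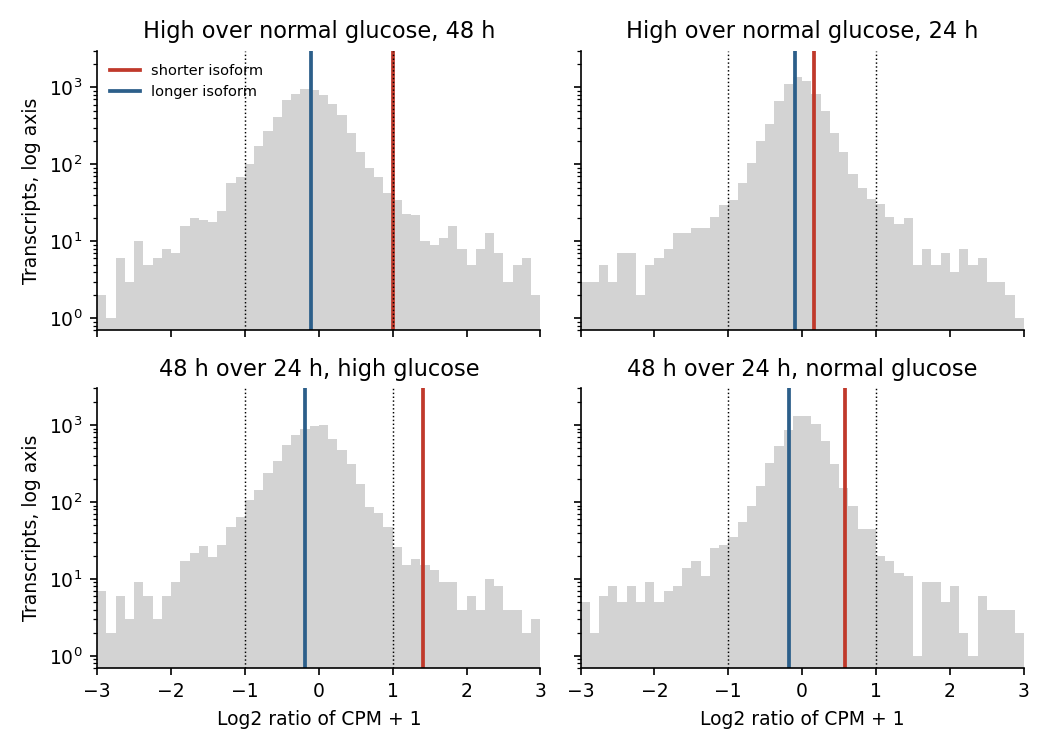
Number of transcripts past the filter, on a log axis, by log2 ratio of CPM + 1 in the 4 comparisons, with dotted lines at 2-fold and coloured lines at the shorter and longer isoform. The axis ends at 3 on either side, and 56 to 81 transcripts per comparison lie beyond it. The shorter isoform lies in the upper tail for both comparisons of the H48 library, exceeded by 209 and 120 transcripts, and the longer lies in the bulk of all 4 distributions.

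The change of the isoform ratio was set beside that of other overlapping transcripts. Of all pairs with overlapping spans, 842 had at least 10 reads for both transcripts in every library, and 171 of these were alone at their locus, as the chromosome 20 isoforms were. At 48 h 22.2% of the 842 pairs had a ratio that differed at least 2-fold between high and normal glucose, and at 24 h 15.3%. Between times the share was 24.1% in high glucose and 15.3% in normal glucose. Among the 171 pairs alone at their locus these shares were 24.0% for glucose at 48 h, 12.9% for glucose at 24 h, 20.5% for time in high glucose and 11.7% for time in normal glucose. The ratio of the chromosome 20 isoforms was past 2-fold in both comparisons of the H48 library, 2.20-fold against N48 and 3.12-fold against H24. A larger change was found in 149 pairs (17.7%) for glucose at 48 h and in 67 pairs (7.96%) for time in high glucose. For glucose at 24 h 60.8% of pairs had a larger change, and for time in normal glucose 24.1% did.

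Over the 4 libraries the ratio of the chromosome 20 isoforms covered a 3.76-fold range, against a median of 1.86-fold over the 842 pairs, and 119 pairs (14.1%) covered a wider range. Among the 171 pairs alone at their locus the median was 1.81-fold and 19 (11.1%) covered a wider range. A pair with 1 transcript within 1.3-fold over the libraries and the other at least 3-fold apart was found 26 times among the 842 (3.09%) and 7 times among the 171, the chromosome 20 pair included. With the first limit at 1.25-fold these counts were 15 and 2. These limits were set after the values were seen and describe the pair's own pattern. Pairs share transcripts at loci with more than 2 of them and are not independent.

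**Figure D5:**
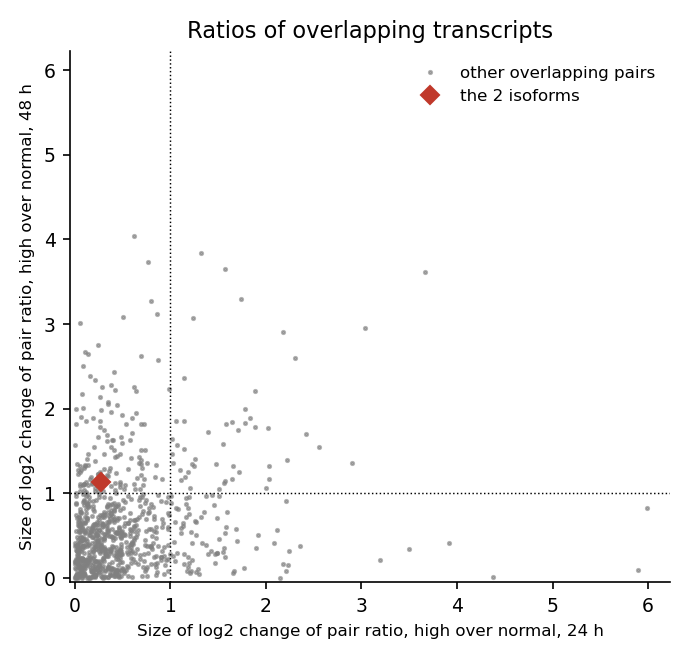
Size of the log2 change in the ratio of 2 overlapping transcripts between high and normal glucose at 24 h (x axis) and 48 h (y axis), 1 point per pair with at least 10 reads for both transcripts in every library, and dotted lines at 2-fold. The chromosome 20 isoforms (diamond) lie at 0.27 at 24 h and 1.14 at 48 h, in a region that holds many other pairs.

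Among lncRNAs the locus was well expressed. By FPKM the shorter isoform ranked 67 of 16762 listed transcripts in H48, 246 of 17210 in N48, 357 of 17110 in H24 and 439 of 16715 in N24. The longer isoform ranked 97, 102, 86 and 82 in the same order of libraries. Of transcripts with an Ensembl identifier, 529 were listed in at least 1 library and 109 passed the filter. Within that class the shorter isoform ranked 1 of 437 in H48, 3 of 482 in N48, and 6 in each 24 h library. The longer isoform ranked 3 in H48 and 2 in each of the other libraries.

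The profiles most like each isoform were sought among 5364 other transcripts with at least 10 reads in every library, by Euclidean distance of log2 (CPM + 1) centred over the 4 libraries. For the shorter isoform the median distance was 1.35 and 2 transcripts lay within 0.3. The nearest was NONRATT004055.2 (chr10:12994689-12995671, spliced, 376 nt), at a distance of 0.17. It had 176 reads in H48, 97 in N48, 75 in H24 and 50 in N24. Its fold of high over normal glucose was 1.89 at 48 h and 1.14 at 24 h, close to the 2.03 and 1.12 of the shorter isoform. The next, NONRATT025322.2 (chr6:128758285-128759478, spliced, 422 nt), lay at 0.28 with 49, 20, 17 and 10 reads in the same order of libraries. Its fold of high over normal glucose was 2.56 at 48 h and 1.29 at 24 h. At such low counts the pseudocount compresses the differences that enter the distance.

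For the longer isoform the median distance was 0.37 and 1792 transcripts lay within 0.3, so that its profile was a common one by this measure. The nearest 2 were NONRATT000906.2 (chrX:156719592-156720467, a single block of 876 nt), at a distance of 0.02 with 11 to 16 reads per library, and NONRATT016311.2 (chr2:118974715-118976545, a single block of 1831 nt), at 0.03 with 144 to 185 reads. The pseudocount compresses the differences of low transcripts such as NONRATT000906.2, which can add to the number within 0.3. With 4 libraries, a like profile says nothing of a shared origin.

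Flanking lncRNA transcripts within 500 kb numbered 7, of which 2 passed the filter, and the other 5 had at most 12 reads in a library. On the left, the nearest that passed was ENSRNOT00000076620 (chr20:47038825-47044786, spliced, 863 nt), 180.8 kb away, with 27 reads in H48, 30 in N48, 24 in H24 and 28 in N24. On the right, NONRATT017449.2 (chr20:47435962-47437418, a single block of 1457 nt), 172.6 kb away, was the most abundant of the 7, with 6.95, 6.38, 6.23 and 4.80 FPKM in the same order of libraries. Its fold of high over normal glucose was 1.09 at 48 h (0.857 to 1.39) and 1.30 at 24 h (0.983 to 1.72), both within counting error. Its fold of 48 h over 24 h was 1.12 in high glucose (0.879 to 1.42) and 1.33 in normal glucose (1.01 to 1.77). That last interval only just excluded 1 with library totals, at a lower end of 1.005, and other scalings were not run for it. For ENSRNOT00000076620 the fold of high over normal glucose was 0.940 at 48 h (0.538 to 1.64) and 0.650 at 24 h (0.361 to 1.16), and that of 48 h over 24 h was 1.24 in high glucose (0.688 to 2.24) and 0.857 in normal glucose (0.495 to 1.49).

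The library totals behind these values were 14225730 in H48, 14855771 in N48, 15654067 in H24 and 11877895 in N24. At these depths 1 read corresponded to between 0.0639 and 0.0842 CPM, and every count of either isoform was at least 240. Protein-coding genes were not analysed here, so the labelled cell type could not be set against its markers.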

How the data were processed

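Raw read counts per lncRNA transcript were deposited for 4 libraries, per the file headers, with FPKM values scaled by the authors beside them. Transcript lengths were deposited with the normal glucose library at 24 h. TopHat2 2.1.0, Cufflinks and the builds rn6 and Rnor_6.0 appear in the submitters' processing notes without their roles. No source used here names the counting tool or the annotation. A transcript not listed in a library was taken as 0 there.

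Library totals were recovered as the value that joins count, length and FPKM, and fitted these within 1% for all transcripts with a deposited length except 2 in each 24 h library. Folds are ratios of CPM without a pseudocount. Intervals at 95% are exact (Clopper-Pearson given both counts' sum, binomial for shares, Poisson for levels), from scipy 1.17.1, except Wald intervals for the ratio of the 48 h to the 24 h fold. They cover counting error only, because each group has 1 library and the spread between cultures is unknown. Without molecular identifiers PCR copies are not separate molecules, so the intervals may be too narrow even for counting error. All 7321 transcripts with a mean of at least 1 FPKM and a length of at least 200 nt were compared with a pseudocount of 1 CPM. Scaling was varied with TMM (edgeR 4.0.16), size factors (DESeq2 1.42.0) and the same lncRNA sum. The functions were tested on simulated data. Groups came from sample titles.

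With 1 library per group and isoforms chosen with earlier results of these data known, as were the comparisons and lists, no test was run. Named transcripts were the isoforms, any that overlap them, the 2 nearest profiles to each, and the nearest measured and most abundant flanking transcripts within 500 kb.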

Additional observations from a re-analysis of the deposited data

How the results depend on the processing

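The change of the isoform ratio is the same with deposited FPKM by construction, and 0.5 read added to counts of at least 240 can hardly move it, so neither tests its stability. Folds from deposited FPKM are likewise fixed, since the totals were recovered from FPKM. The folds of the shorter isoform outside their counting interval, all for glucose at 48 h, were 2.33 with TMM factors, 2.34 with size factors and 2.31 with the same lncRNA sum, against 2.03. Those of the longer isoform were, for glucose at 48 h, 1.06 with TMM factors, 1.06 with size factors and 1.05 with the same sum, against 0.925, and for time in high glucose 0.966 with TMM factors and 0.967 with size factors, against 0.878. These scalings raise values of the high glucose library at 48 h relative to the others. With at least 50 reads in place of 10, pairs with a ratio changed at least 2-fold numbered 36 of 206 for glucose at 48 h (17.5%), 20 at 24 h (9.71%), 39 for time in high glucose (18.9%) and 23 in normal glucose (11.2%). These shares are lower than with at least 10 reads, at 22.2%, 15.3%, 24.1% and 15.3% in the same order of comparisons. The other totals of transcripts or pairs beyond 2-fold stayed within 1.5 times. With a pseudocount of 0.5 CPM 276 transcripts were higher and 479 lower for glucose at 48 h, and with TMM factors 256 and 246, against 209 and 316. For time in high glucose that pseudocount gave 262 and 488, against 188 and 318. No paired analysis was possible because each group has 1 library, and for the same reason no library could be left out within a group.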
